A study of Mus musculus with 9 samples.

Results

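The trophic factor genes described here are Ngfr, Ntrk2, Ntrk3, Ret, Gfra1 and Gfra2, which encode receptors for neurotrophins and for the GDNF family, and Bdnf and Gdnf, which encode ligands. These 8 were chosen by name, for their known role in sensory ganglia, but with earlier results of these data known. Every probe set that the platform annotation assigns to one of them was taken. These were 32 probe sets, for 8 of the 18193 genes with a probe set. Their values were compared on 9 Affymetrix mouse arrays of passage 3 neurospheres, which are free-floating colonies grown from dissociated tissue. All spheres came from C57BL/6J embryos at embryonic day 12.5 and were grown with bFGF and EGF, at 20 ng/ml each. SCSC were grown from spinal cord and rNCSC from dorsal root ganglia (DRG), the sensory ganglia beside the cord. BMP NCSC came from DRG as well, but their medium also held 10 ng/ml of the bone morphogenetic protein BMP4. The submitters describe SCSC as stem cells of the central nervous system (CNS) that carry Olig2, rNCSC as DRG cells reprogrammed toward that state in culture, and BMP NCSC as not reprogrammed and as a mix that includes progenitors of peripheral neurons, glia and mesenchymal cells. Olig2 was at 12.10 ± 0.045 in rNCSC, 12.14 ± 0.10 in SCSC and 1.47 ± 0.15 in BMP NCSC (log2, SD, n = 3 each). Each group had 3 arrays, and the labels do not say whether these came from separate embryos or cultures. Every p-value below therefore reflects only how far arrays lay apart within groups, which may be technical. In the main fit this spread was estimated from all 3 groups together, so it includes the group not compared.

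Neurotrophins are secreted proteins that keep neurons of the peripheral nervous system alive and steer their growth. They act through the Trk receptor tyrosine kinases, of which Ntrk2 encodes TrkB, the receptor of BDNF, and Ntrk3 encodes TrkC, and through p75NTR, the product of Ngfr, which binds all neurotrophins and has long been used to isolate neural crest stem cells. Ligands of the GDNF family bind a GFRalpha co-receptor at the cell surface, and the complex activates the receptor tyrosine kinase RET, which enteric, sympathetic and many sensory neurons need. GFRalpha1, from Gfra1, prefers GDNF, and GFRalpha2, from Gfra2, prefers neurturin.

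The values are log2 values made by the authors with GCRMA, 1 per probe set. Array medians lay between 3.99 and 4.03, and unexpressed transcripts are drawn together at low values, so a difference that involves a mean under 4 has an uncertain size. A gene was represented by its probe set with the highest mean, and was tested when that probe set reached 5 on at least 3 arrays, which held for 10319 genes and for 7 of the 8 members. Gdnf was not tested. Called genes had a limma p below 0.05, after Benjamini-Hochberg adjustment over all genes tested, and a log2 difference of 1 or more in either direction. The SD over 3 arrays exceeded 0.5 for 983 of the genes tested in rNCSC and 731 in BMP NCSC, against 146 in SCSC.

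Ntrk2, Ntrk3 and Gfra1 were high in both kinds of sphere grown without BMP4 and low in BMP NCSC. By contrast, Ret, Bdnf and Ngfr were under 5 on every array without BMP4 and higher in BMP NCSC. Ret and its co-receptor gene Gfra1 thus differed in opposite directions, as did Bdnf and Ntrk2, the gene of its Trk receptor, while Ngfr differed in the direction of Bdnf. Between rNCSC and SCSC, which shared a medium, none of the 7 genes was called. SCSC and BMP NCSC differed in tissue of origin as well as in BMP4, and their comparison cannot tell these apart. In rNCSC against BMP NCSC the tissue of origin was the same. The words with and without BMP4 name the groups by medium.

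**Figure D1:**
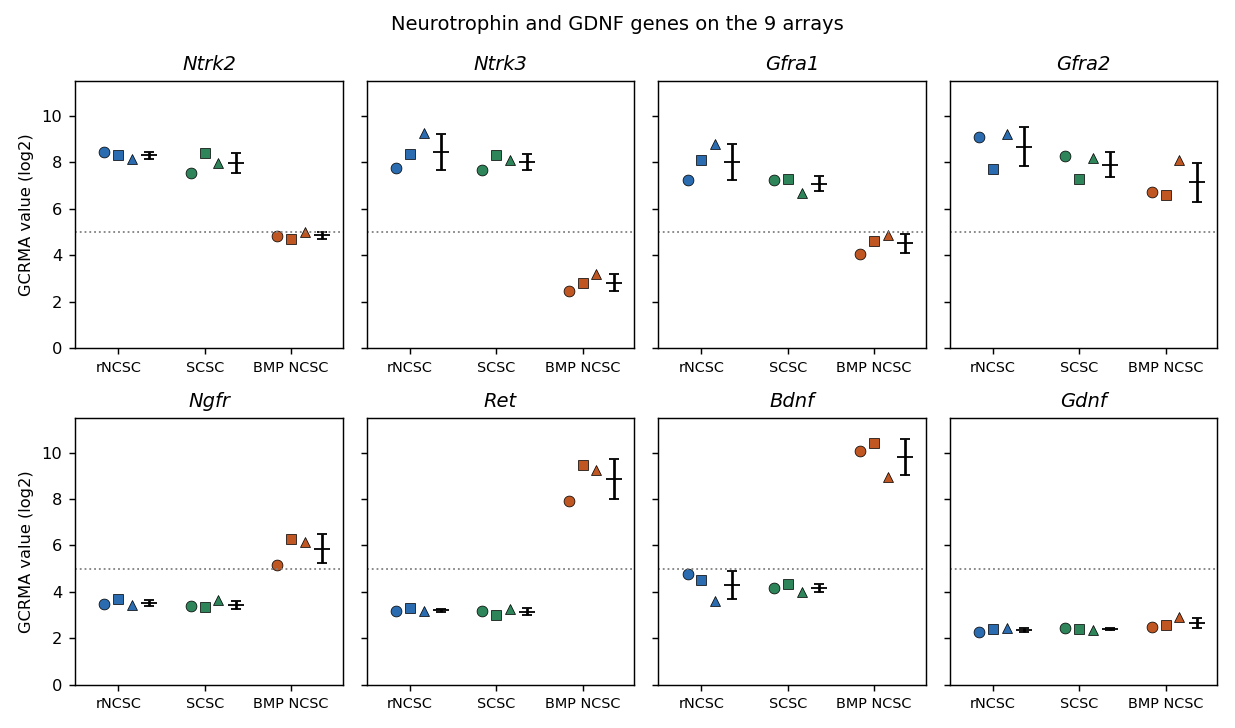
GCRMA values (log2) of the 8 genes on each of the 9 arrays, with circles, squares and triangles for replicates 1, 2 and 3, and a bar for the mean and SD of the 3 arrays of a group. The dotted line marks the level of 5 used for testing; Ret, Bdnf and Ngfr reach it on BMP NCSC arrays only, and Gdnf on none.

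Promoter sequences, the 250 bases before a RefSeq transcription start (GRCm38.p6), were matched for 5 of the 8 genes, namely Ngfr, Ntrk2, Gfra1, Bdnf and Gdnf. They are shown for 4 genes that differed between spheres with and without BMP4, since SMAD proteins carry the BMP signal to DNA. For Bdnf, which has 7 starts in the table, the single start whose window holds both motifs searched is shown, a choice made after the search. Capitals mark GGCGCC, a GC-rich SMAD motif, and CAGAC or its complement GTCTG, the SMAD box, both searched on both strands with overlap allowed.
Ngfr, chr11:95587699-95587948, minus strand: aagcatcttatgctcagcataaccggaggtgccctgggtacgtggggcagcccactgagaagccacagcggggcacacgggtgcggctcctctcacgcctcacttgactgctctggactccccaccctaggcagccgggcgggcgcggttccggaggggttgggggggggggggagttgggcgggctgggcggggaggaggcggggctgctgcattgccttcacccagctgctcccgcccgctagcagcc
Ntrk2, chr13:58806319-58806568, plus strand: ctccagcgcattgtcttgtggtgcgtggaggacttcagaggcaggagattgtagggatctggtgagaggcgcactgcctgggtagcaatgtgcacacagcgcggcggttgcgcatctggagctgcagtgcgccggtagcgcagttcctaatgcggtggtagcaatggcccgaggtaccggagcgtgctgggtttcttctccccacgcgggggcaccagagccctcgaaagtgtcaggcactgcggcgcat
Gfra1, chr19:58455399-58455648, minus strand: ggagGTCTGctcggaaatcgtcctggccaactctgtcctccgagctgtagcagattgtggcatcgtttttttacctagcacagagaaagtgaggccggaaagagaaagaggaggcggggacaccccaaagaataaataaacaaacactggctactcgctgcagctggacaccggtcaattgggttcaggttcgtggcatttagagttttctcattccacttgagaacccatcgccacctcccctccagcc
Bdnf, chr2:109694159-109694408, plus strand: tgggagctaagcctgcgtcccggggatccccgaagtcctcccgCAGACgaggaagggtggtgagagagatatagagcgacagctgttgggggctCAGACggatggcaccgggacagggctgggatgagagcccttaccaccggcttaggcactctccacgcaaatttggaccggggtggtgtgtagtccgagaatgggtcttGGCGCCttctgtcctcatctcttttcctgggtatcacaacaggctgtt
GGCGCC stood in 9.59% and CAGAC in 42.2% of all 32851 promoter windows of that length. Neither motif was present in the windows of Ngfr and Ntrk2, Gfra1 held CAGAC alone, and of the 7 Bdnf windows 4 held CAGAC and 1 held GGCGCC. Of the 2 Gdnf windows, 1 held CAGAC. A match is a run of letters and not evidence of a site in use. GC content was 70.4% for Ngfr, 62.8% for Ntrk2 and 52.4% for Gfra1, where the median of all windows was 52.4% with quartiles of 45.2% and 61.2%.

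The Trk receptor genes were high without BMP4. Ntrk2 was at 8.43, 8.30 and 8.15 on the rNCSC arrays, at 7.56, 8.41 and 7.98 on the SCSC arrays, and at 4.84, 4.68 and 5.01 on the BMP NCSC arrays. All 6 arrays without BMP4 lay above the 3 with it. The means were 8.30 ± 0.14 for rNCSC and 4.85 ± 0.17 for BMP NCSC (SD, n = 3 each), a log2 difference of 3.45 (SE 0.20, adjusted p = 7.4e-07) or 10.9-fold. SCSC, at 7.98 ± 0.42 (n = 3), were above BMP NCSC by 3.14 (SE 0.20, adjusted p = 1.2e-06). Ntrk2 has 8 probe sets, and a second one that reached the test level differed in the same direction, by 4.56 (SE 0.32) and 3.77 (SE 0.32). The other 6 were between 2.20 and 3.87 on every array. Ntrk2 transcripts are known to exist in a form with the kinase and in truncated forms without it; which form each probe set reads was not determined.

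Ntrk3, whose TrkC product marks proprioceptive sensory neurons among others, differed in the same direction. It was at 7.74, 8.34 and 9.28 in rNCSC, at 7.65, 8.32 and 8.08 in SCSC and at 2.45, 2.80 and 3.21 in BMP NCSC. The groups with and without BMP4 did not overlap, and every BMP NCSC array was at the lower end of the scale. The log2 difference was 5.63 (SE 0.38, adjusted p = 1.7e-06) for rNCSC and 5.19 (SE 0.38, adjusted p = 2.6e-06) for SCSC against BMP NCSC. Both sizes are uncertain, since the BMP NCSC mean was 2.82 ± 0.38 (n = 3), and they were 4.45 and 4.02 when values under 4 were set to 4. Of 8 probe sets of Ntrk3, 3 reached the test level, and the other 2 of these differed by 3.05 and 2.42 in rNCSC and by 2.61 and 2.03 in SCSC. All 3 thus had lower values in BMP NCSC.

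Ngfr was the neurotrophin receptor gene that was higher in BMP NCSC. It was at 3.46, 3.68 and 3.45 in rNCSC, at 3.38, 3.33 and 3.64 in SCSC and at 5.14, 6.27 and 6.17 in BMP NCSC. The BMP NCSC arrays were above all others, but replicate 1 was 1.13 below the highest of them. The difference was -2.33 (SE 0.27, adjusted p = 5.7e-05) for rNCSC and -2.41 (SE 0.27, adjusted p = 4.3e-05) for SCSC against BMP NCSC. Its size is uncertain, since the rNCSC and SCSC means were under 4, and it was -1.86 in both with values under 4 set to 4. The other 2 probe sets of Ngfr were between 2.38 and 2.95 on all 9 arrays, so 1 of 3 probe sets carried the result.

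Bdnf, the ligand of TrkB, was higher with BMP4, where Ntrk2 was lower and Ngfr higher. It was at 4.79, 4.50 and 3.63 in rNCSC, at 4.15, 4.36 and 3.99 in SCSC and at 10.05, 10.41 and 8.94 in BMP NCSC. No array without BMP4 came within 4 log2 units of one with it. The mean in BMP NCSC was 9.80 ± 0.77 (n = 3), against 4.30 ± 0.60 in rNCSC and 4.17 ± 0.19 in SCSC (n = 3 each), and the differences were -5.49 (SE 0.40, adjusted p = 3e-06) and -5.63 (SE 0.40, adjusted p = 2.4e-06). The second of its 2 probe sets gave -4.04 (SE 0.26) and -4.05 (SE 0.26). Bdnf was thus the 1 member for which every probe set was called. Both probe sets carry the same accession in the annotation, so they are not independent views of the gene.

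Ret, the signalling receptor of the GDNF family, was high on the BMP NCSC arrays alone. It was at 3.17, 3.29 and 3.18 in rNCSC, at 3.19, 3.00 and 3.27 in SCSC and at 7.90, 9.48 and 9.25 in BMP NCSC. The spheres without BMP4 were at the lower end of the scale on all 6 arrays. The difference was -5.66 (SE 0.35, adjusted p = 1.1e-06) for rNCSC and -5.72 (SE 0.35, adjusted p = 9.7e-07) for SCSC, with an uncertain size since both means were under 4. With values under 4 set to 4 it was -4.88 in both. The second probe set of Ret stayed between 3.20 and 3.63 on every array, and with the mean of both probe sets the differences were -2.86 and -2.85.

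Gfra1, the co-receptor gene for GDNF, ran the other way. It was at 7.22, 8.10 and 8.79 in rNCSC, at 7.24, 7.30 and 6.69 in SCSC and at 4.05, 4.63 and 4.87 in BMP NCSC. The spheres without BMP4 were higher on every array, and rNCSC spread over 1.57. The difference was 3.52 (SE 0.39, adjusted p = 3.8e-05) for rNCSC and 2.56 (SE 0.39, adjusted p = 0.00027) for SCSC. The other 2 of its 3 probe sets were between 2.55 and 3.72.

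Gfra2 was the only member above 5 on all 9 arrays, and the groups overlapped. It was at 9.10, 7.70 and 9.21 in rNCSC, at 8.27, 7.27 and 8.17 in SCSC and at 6.71, 6.59 and 8.11 in BMP NCSC. The mean was 1.53 higher in rNCSC than in BMP NCSC (SE 0.53, adjusted p = 0.026), and 0.77 higher in SCSC (95% interval -0.44 to 1.98, adjusted p = 0.21). The call for rNCSC depended on single arrays: the adjusted p was 0.081 when rNCSC replicate 1 was left out, 0.078 for rNCSC replicate 3, 0.082 for BMP NCSC replicate 1 and 0.087 for BMP NCSC replicate 2. Across all alternatives it ran from 0.0036, with replicate number as a block, to 0.087. Without BMP NCSC replicate 3 the difference of SCSC was 1.26 and was called (adjusted p = 0.044, in a range of 0.044 to 0.46). Both probe sets of Gfra2 that reached the test level are of the x_at type, whose probes can also match other transcripts, and the annotation gives no accession for them. The second of them was not called, at 0.96 (SE 0.32, adjusted p = 0.022) in rNCSC, under the size limit, and 0.41 (SE 0.32, adjusted p = 0.27) in SCSC, so the rNCSC call rests on 1 of 2 probe sets. The other 3 were between 2.75 and 4.03.

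Gdnf, the ligand, was at 2.27 to 2.44 in rNCSC, 2.35 to 2.44 in SCSC and 2.48 to 2.90 in BMP NCSC on its single probe set. No array reached the test level, so no level can be told from background. Gdnf was not detectable in any of the 3 kinds of sphere with this probe set.

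**Figure D2:**
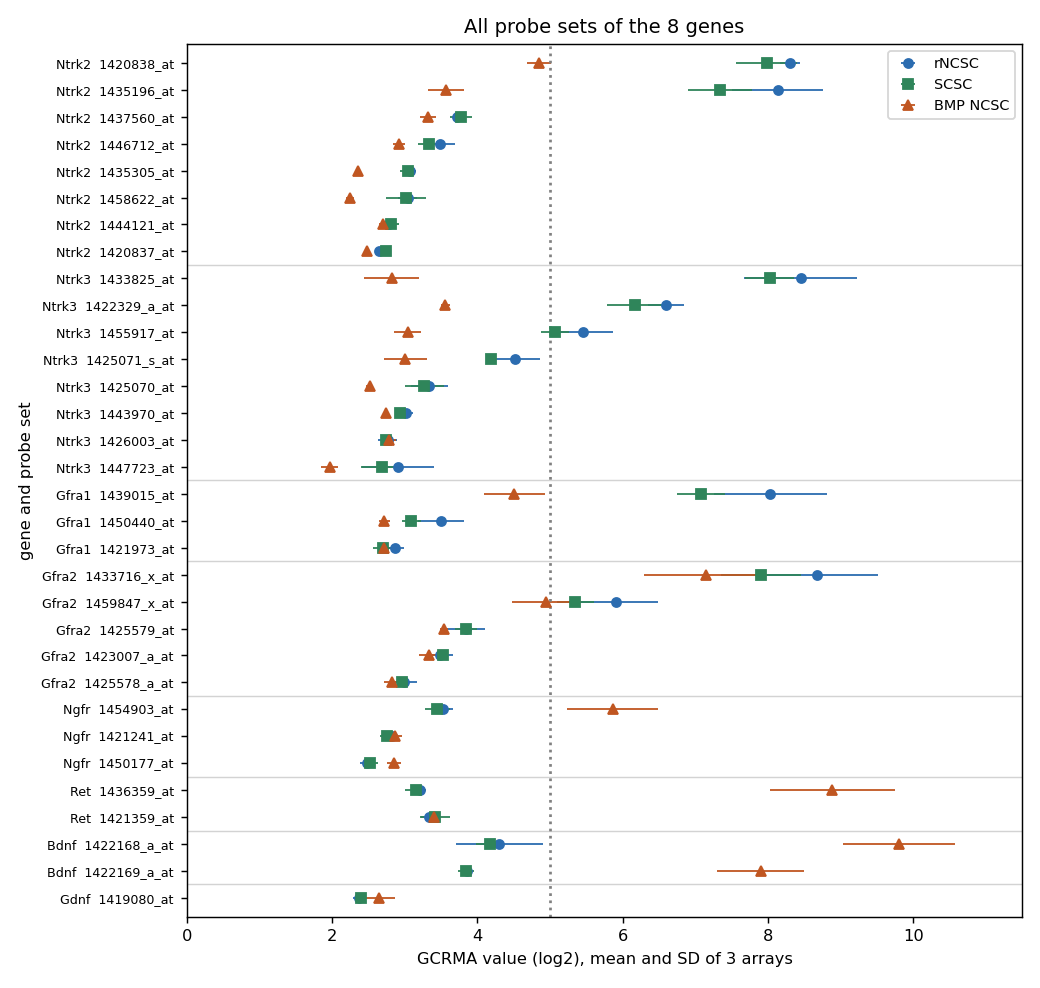
Mean and SD over 3 arrays of the GCRMA value (log2) for each of the 32 probe sets, by gene, with circles for rNCSC, squares for SCSC and triangles for BMP NCSC. Of the 32 probe sets 12 reach the dotted level of 5 on at least 3 arrays; the other 20 lie under 5 on every array, including Ntrk2, Ntrk3, Gfra1, Gfra2, Ngfr and Ret probe sets beside the ones that reach it.

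Against BMP NCSC, rNCSC had 4 members called higher, where 21.3% of all genes tested were, and 3 called lower, where 22.6% were. In SCSC 3 were higher and 3 lower, beside 24% and 22.9% of all genes. The arrays did not overlap for 6 of the 7 members in either comparison, and for 79.6% and 83.6% of all genes. Ngfr, Ret and Bdnf could reach the test level only through BMP NCSC, and Ntrk2, Ntrk3 and Gfra1 only through the spheres without BMP4. Passing thus fixed the direction of these 6 in large part, and the counts are no support of their own. With no filter on low values the same 7 and 6 members were called. That setting used the same arrays and the same probe set per gene, so it is no separate support. The probe sets fitted on their own gave 7 higher and 4 lower of 12 in rNCSC, where 21.5% and 21.1% of all probe sets tested were called. In SCSC they gave 6 higher and 4 lower, beside 23.9% and 21.7%. Between rNCSC and SCSC none of the 12 was called, where 0% of all probe sets were called higher and 0.00567% lower. The comparisons share the BMP NCSC arrays, so their results are not independent.

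**Figure D3:**
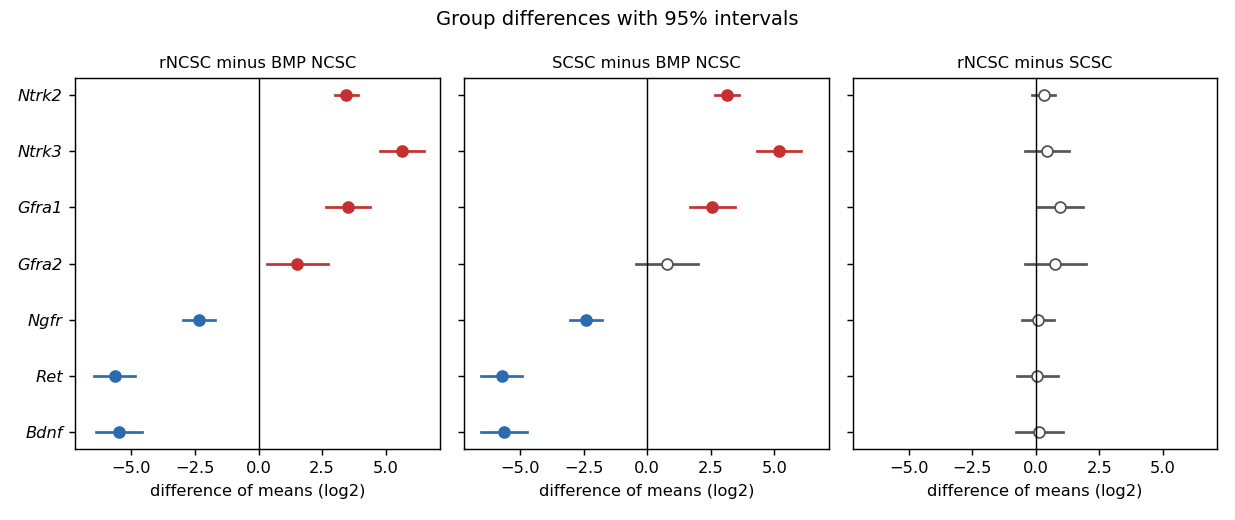
Difference of group means (log2) with its 95% interval for the 7 tested genes in each comparison, with filled points for called genes and open points for the rest. Ntrk2, Ntrk3 and Gfra1 lie right of 0 and Ngfr, Ret and Bdnf left of it in both comparisons with BMP NCSC, and all 7 points of rNCSC minus SCSC are open.

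The comparison of rNCSC with SCSC asked whether tissue of origin left a difference once the medium was the same. None of the 7 genes was called, and 0% of all genes tested were called higher and 0.00969% lower in this comparison. Unadjusted p fell under 0.05 for 1413 of the genes tested. Gfra1 came nearest, with rNCSC above SCSC by 0.96 (95% interval 0.08 to 1.84, limma adjusted p = 0.33), and the arrays overlapped. The intervals were -0.15 to 0.77 for Ntrk2, -0.43 to 1.30 for Ntrk3, -0.44 to 1.97 for Gfra2 and -0.78 to 1.05 for Bdnf. For Ngfr, from -0.54 to 0.70, and Ret, from -0.75 to 0.87, both groups were under 4. A difference of 1 was thus outside the interval for Ntrk2, Ngfr and Ret and inside it for the other 4. Values under 4 are drawn together, so for Ngfr and Ret the interval cannot exclude a difference of that size in expression. The second Ntrk2 probe set had a wider spread, with 0.80 (SE 0.32, adjusted p = 0.36), and does not exclude a difference of 1 for Ntrk2. Over all genes tested, the count called in this comparison depended on 1 array. Without rNCSC replicate 2, 18 genes were called higher and 53 lower, with no member among them.

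By level, rNCSC and SCSC arrays overlapped for all 8 members. Overlap was usual in this comparison, as the arrays failed to overlap for only 20.7% of all genes tested. BMP NCSC stood apart below both groups for Ntrk2, Ntrk3 and Gfra1 and above them for Ret, Bdnf and Ngfr. Within groups the members did not vary alike. In BMP NCSC, replicate 1 was lowest for Ret and Ngfr, and replicate 3 was lowest for Bdnf. The SD of Ret there, 0.86, was larger than that of 97.8% of the genes tested, and those of Bdnf (0.77) and Ngfr (0.63) than 97.1% and 95.3%. In rNCSC, Ntrk3 and Gfra1 were both lowest on replicate 1 and highest on replicate 3, over ranges of 1.54 and 1.57, while Ntrk2 ranged over 0.28.

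Cell type markers also differed between spheres with and without BMP4, given here as the range over arrays of each list's mean log2 value. Beside the counts below, 21.3% of all genes tested were called higher in rNCSC than in BMP NCSC and 22.6% lower. All 5 CNS progenitor markers were higher in rNCSC than in BMP NCSC, with 10.46 to 10.87 in rNCSC, 10.64 to 10.94 in SCSC and 3.22 to 3.33 in BMP NCSC. Astrocyte markers (6.87 to 7.75, 6.61 to 6.98 and 5.59 to 6.40) were higher in rNCSC for 3 of 4 tested and lower for 1, S100b, and oligodendrocyte lineage markers (6.33 to 7.35, 6.71 to 6.98 and 5.38 to 5.87) were higher for 1 and lower for 1 of 3. The 4 neural crest markers tested (list means of 3.80 to 4.36, 4.07 to 4.13 and 9.35 to 9.44) and all 6 of mesenchyme and cartilage (3.39 to 3.61, 3.37 to 3.61 and 12.89 to 13.35) were lower in rNCSC. The defining crest gene Foxd3 was under 4 on average in all groups. Of 6 peripheral glia markers (6.37 to 6.54, 6.33 to 6.53 and 8.99 to 9.56) 4 were lower and 1, Gap43, higher in rNCSC. Sensory neurons, where these receptors are best known, had 4 of 12 markers tested (4.20 to 4.58, 4.55 to 4.56 and 4.23 to 4.59), with 2 higher and 1 lower in rNCSC. The 2 higher were Elavl4 (means of 9.89 in rNCSC, 10.23 in SCSC and 7.90 in BMP NCSC) and Neurod1 (7.59, 8.38 and 2.87). The lower one was Runx1 (3.56, 3.24 and 10.20), and Tubb3 (5.31, 6.24 and 5.01) was not called. The defining factors Isl1 and Pou4f1 had means under 4 in all groups. Sympathetic and enteric markers (3.89 to 3.96, 3.76 to 4.02 and 3.90 to 4.19) had 1 of 4 tested and none called, and the 5 motor neuron, 3 endothelial and 4 microglial markers all had means under 4. The part of these cell types in the differences of the 8 genes was not tested, and in bulk RNA fewer cells of a type and less RNA per cell cannot be told apart.

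Other genes of the same pathways were taken from a list of 69, of which 59 had a probe set of their own and 40 were tested, while 10 of the 69 were not analysed here. In rNCSC against BMP NCSC, 11 were higher and 10 lower, or 52.5% called beside 43.9% of all genes, and the median difference was 0.18 beside 0.07. In SCSC against BMP NCSC, 12 were higher and 9 lower, or 52.5% beside 46.9%, with medians of 0.19 and 0.10. The shares are near those of all genes. Between rNCSC and SCSC none of the 40 was called, except that without rNCSC replicate 2 the adaptor gene Grb10 was. In that setting 18 of all genes tested were called higher and 53 lower, against 0 and 1 with all arrays.

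None of the 4 other ligand genes measured was tested. Ntf5, which encodes a second TrkB ligand, was at 3.05 to 3.25 in rNCSC, 2.77 to 3.25 in SCSC and 4.17 to 4.98 in BMP NCSC, and with no filter on low values it was called lower in rNCSC and SCSC. Nrtn, the gene of neurturin, was at 3.79 to 3.99 without BMP4 and 4.45 to 4.59 with it, and Artn at 2.39 to 2.70 and 2.92 to 3.58. Pspn was under 3 on all arrays. For Ntf5, Nrtn and Artn the BMP NCSC arrays were above all others, at levels too low for a size.

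Of the 8 other receptor and co-receptor genes tested, rNCSC had 3 higher and 3 lower than BMP NCSC, or 75% called beside 43.9% of all genes. Sdc3, whose heparan sulphate proteoglycan binds GDNF, was at 9.90 ± 0.57 in rNCSC, 10.12 ± 0.38 in SCSC and 6.27 ± 0.29 in BMP NCSC (n = 3 each), a difference of 3.63 (SE 0.31) and 3.86 (SE 0.31). Ncam1, an adhesion molecule that can bind GDNF with GFRalpha1, was higher by 1.85 (SE 0.14) and 1.75 (SE 0.14), like Gfra1 in direction. Nradd, a relative of p75NTR, had means of 4.73 ± 0.084 for rNCSC and 7.42 ± 0.49 for BMP NCSC (n = 3 each), a difference of -2.69 (SE 0.23), and SCSC differed by -2.58 (SE 0.23), the direction of Ngfr. Among the sortilin family, sorting receptors that bind proneurotrophins or traffic Trk receptors, the members differed in direction. Sort1 (-1.26) and Sorl1 (-2.02) were lower in rNCSC and Sorcs1 (1.66) was higher, while Sorcs2 (-0.87, adjusted p = 0.064) was not called. Gas1 (0.81), which is not of that family, was not called either. Nradd and Sorl1 could reach the test level only through BMP NCSC, so passing fixed their direction in large part. With the mean of probe sets, Sort1, Sorl1 and Sorcs1 were not called in rNCSC, nor Ncam1, Sort1 and Sorl1 in SCSC. With probe sets fitted singly, Gas1 was called in rNCSC. Sorcs2 was called without rNCSC replicate 3 (-1.07, adjusted p = 0.043) or BMP NCSC replicate 1 (-1.26, adjusted p = 0.0085), and in SCSC without BMP NCSC replicate 1 (-1.28, adjusted p = 0.0076). The remaining 5 genes measured were not tested. Of these, the co-receptor genes Gfra3 and Gfra4 had means of 3.93 and 3.92 in rNCSC, 3.84 and 3.85 in SCSC and 3.99 and 3.56 in BMP NCSC. Lingo1, which encodes a partner of p75NTR, was at 4.94 to 5.19 in rNCSC, 4.83 to 4.98 in SCSC and 4.26 to 4.79 in BMP NCSC. Sorcs3 and the Nogo receptor gene Rtn4r were between 3.24 and 4.15 on every array.

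**Figure D4:**
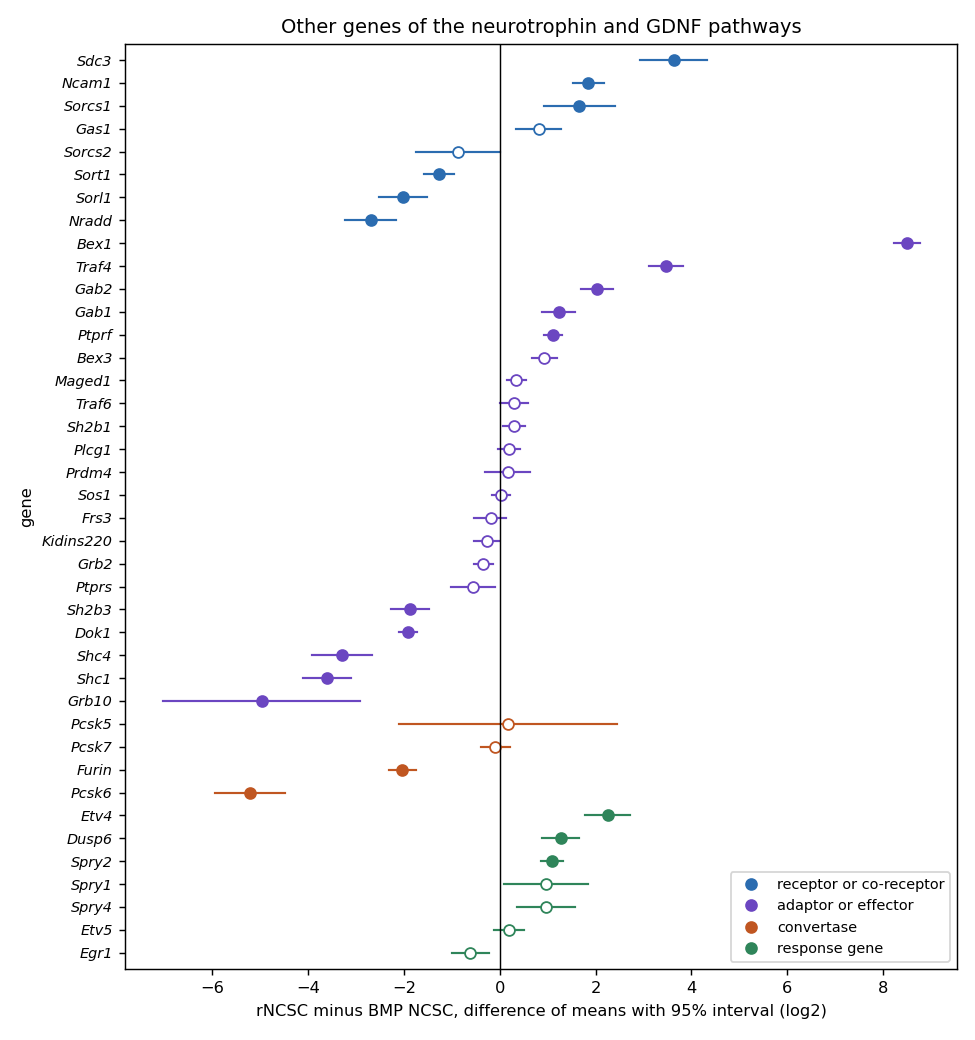
Difference of group means, rNCSC minus BMP NCSC (log2), with its 95% interval for the 40 other pathway genes tested, coloured by role, filled where called. Bex1 has the largest positive difference, at 8.49, Pcsk6 the largest negative one, at -5.20, and Grb10 a wide interval from -7.02 to -2.91.

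Inside the cell, 5 of 21 adaptor and effector genes were higher in rNCSC than in BMP NCSC, and 5 were lower. That is 47.6% called, near the 43.9% of all genes. Bex1, which encodes a p75NTR-interacting protein, was at 11.64 to 11.93 in rNCSC, 11.99 to 12.05 in SCSC and 3.13 to 3.43 in BMP NCSC, a difference of 8.49 (SE 0.12) and 8.77 (SE 0.12). Traf4, of a family of receptor-linked adaptors, was higher by 3.47 and 3.49 (SE 0.16 each). The phosphotyrosine adaptor genes Shc1 (-3.60 and -3.69) and Shc4 (-3.29 and -2.91) were lower in rNCSC and SCSC. Bex1 could reach the test level only through the spheres without BMP4, and Shc1 only through BMP NCSC. Passing thus fixed the direction of Bex1 and Shc1 in large part. Grb10 was at 6.84, 8.91 and 4.46 in rNCSC, 9.85, 10.20 and 9.99 in SCSC and 11.66, 11.53 and 11.92 in BMP NCSC. Its difference from BMP NCSC was -4.96 (SE 0.90, adjusted p = 0.00089) in rNCSC and -1.69 (SE 0.90, adjusted p = 0.11) in SCSC. The second was called without rNCSC replicate 2 (adjusted p = 0.018) or 3 (0.0089), with all rNCSC arrays left out of the fit, and with the mean of probe sets or probe sets fitted singly. Without replicate 2, the difference of rNCSC from SCSC was -4.36 and called (adjusted p = 0.023), in place of -3.28 (adjusted p = 0.22).

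Of the convertases, proteases that cut proneurotrophins and BMP precursors among other proteins, Pcsk6 was at 5.37 to 6.71 in rNCSC, 6.14 to 6.45 in SCSC and 10.94 to 11.59 in BMP NCSC, a difference of -5.20 (SE 0.32) and -5.07 (SE 0.32). Furin differed by -2.03 and -2.08 (SE 0.12 each). Pcsk5 and Pcsk7 were not called in either comparison, except Pcsk5 (-1.49) in SCSC without rNCSC replicate 3 (adjusted p = 0.012) or with the rNCSC arrays all left out of the fit. Of 7 response genes, which FGF receptors also induce, 3 were higher in rNCSC and none lower, or 42.9% called beside 43.9% of all genes. These were Etv4 (2.25, SE 0.20), Dusp6 (1.27, SE 0.17) and Spry2 (1.10, SE 0.10). Etv4 could reach the test level only through the spheres without BMP4, which fixed its direction in large part. In SCSC all 3 were called too, at 2.45, 1.11 and 1.05. There Spry2 was under the size limit without SCSC replicate 3 or BMP NCSC replicate 2 (0.99 each), and Dusp6 without BMP NCSC replicate 3 (0.91). In rNCSC, Spry1 and Spry4 (0.97 each) and the p75NTR-binding protein gene Bex3 (0.93) were just under the size limit. Spry1 was called without rNCSC replicate 1 (1.19) or BMP NCSC replicate 1 (1.15) or 2 (1.21), Spry4 without rNCSC replicate 2 (1.18) or BMP NCSC replicate 3 (1.07), and Bex3 without rNCSC replicate 3 (1.02).

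The genes nearest in profile to each member were found by the root mean square difference of the 9 centred log2 values. Ret was nearest to Cd59a (0.200), which encodes a complement inhibitor, the secretogranin gene Scg2 (0.229) and Gcnt2 (0.264), all of which were low on the same 6 arrays. Bdnf was nearest to Pde1a (0.333), Mkx (0.340), a homeobox gene of tendon, and the arginine transporter gene Slc7a2 (0.360). For Ngfr the nearest were the ion channel gene Asic2 (0.154), Rassf5 (0.195) and Tor3a (0.196). Ntrk3 was nearest to C1ql3 (0.276), the semaphorin receptor gene Plxnc1 (0.340) and Ncald (0.405), and Gfra1 to the adhesion gene Ncam2 (0.345), Gdpd2 (0.360) and Sez6l (0.375). Ntrk2 was nearest to 1700066M21Rik (0.225), Ppp1r1a (0.233) and Lcorl (0.240), and Gfra2 to Gm38462 (0.377), Serinc5 (0.438) and Slc25a29 (0.458). Within the 7 tested members Ret and Bdnf were nearest to each other (0.665), as were Ntrk2 and Gfra1 (0.606). These are descriptions over 9 arrays in 3 groups, and many genes share the step between spheres with and without BMP4.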

How the data were processed

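Expression was measured on 9 Affymetrix mouse arrays, grouped by sample title. The deposited values are log2 signals, and the authors made them with GCRMA (version not stated), per the submitters' processing notes. GCRMA also makes the arrays' distributions alike. Of 45101 probe sets, 34945 with 1 gene symbol in the platform annotation and no control role were used; 932 with several symbols, 9211 unlisted ones and 13 controls with a symbol were left out. Group means over all 9 arrays were fitted with limma 3.58.1 in R 4.3.3, with eBayes moderation (residual degrees of freedom 6, prior 2.38), and two-sided p-values were adjusted by Benjamini-Hochberg. The number of arrays limits the precision. The members, lists and tests were chosen with earlier results of these data known. Named were all members and the 3 genes nearest in profile to each tested member; pathway genes were named if ligands, receptors or co-receptors, or among the 4 with the greatest called difference each way. Cell type markers are given as lists, with few named. Furin, Pcsk5, Pcsk7, Dusp6, Bex3, Spry1, Spry2 and Spry4 were named after their values were seen. The test was run on simulated data first. Alternatives varied the probe set rule, filter, floor, normalization, variance prior, arrays, threshold and replicate block.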

Additional observations from a re-analysis of the deposited data

How the results depend on the processing

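Over 20 alternatives, 117 of 120 counts of called genes stayed within 1.5 times the reported one, and 396 of 405 differences of single members kept their direction and side of the threshold. The 405 leave out settings in which a member was not tested. Some settings, such as leaving out an array of the group not compared, could not change a difference, so these shares do not measure robustness. With the mean of a gene's probe sets, the count of members called was 2 in both comparisons with BMP NCSC, Bdnf and Ret, as only these 2 members then reached the test level. Without any 1 array it ranged from 6 to 7 in both, and it was 0 throughout for rNCSC against SCSC. Without any 1 array, pathway genes called ranged from 21 to 23, from 20 to 23 and from 0 to 1 for rNCSC against BMP NCSC, SCSC against BMP NCSC and rNCSC against SCSC. Over all alternatives the first of these ran from 15, with the mean of probe sets, to 30, with no limit on size, and the second from 18 to 29 in the same settings. Small differences between rNCSC and SCSC changed sign for Bdnf when rNCSC replicate 1 was left out (-0.10; -0.10 to 0.47 without any 1 array), and for Ret with the mean of probe sets (-0.01) and without SCSC replicate 2 (-0.02; -0.02 to 0.12 without any 1 array), and none was called. Gfra2 is the member whose calls depended on single arrays. With a filter level of 6 Ngfr was no longer tested, and 6 members were called in rNCSC and 5 in SCSC against BMP NCSC.

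The replicate numbers were not taken to pair the samples in the main fit. Deviations of same-numbered arrays of different groups had correlations from 0.04 to 0.30, over 0.1 in 5 of 9 pairs. In the other pairs they ran from -0.24 to 0.12, over 0.1 in 1 of 18. Same-numbered arrays were thus somewhat more alike, which the main fit ignored. With the replicate block, 7, 6 and 0 members were called, the same as without it. For Gfra2 against BMP NCSC, the limma adjusted p fell from 0.026 to 0.0036 in rNCSC and from 0.21 to 0.054 in SCSC. For Gfra1 and Bdnf it rose in both comparisons with BMP NCSC.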
